A study of Mus musculus with 8 samples.

Results

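The Nrf2 and glutathione defence genes described here are 10 genes taken by name, Nfe2l2, Keap1, Slc7a11, Gclc, Gclm, Gpx1, Prdx6, Txnrd1, Nqo1 and Hmox1, out of 21000 protein-coding genes in the RefSeq annotation of the mouse genome (GRCm38). Around each gene, every open chromatin peak that overlapped the gene body or the 50 kb on either side was taken, 126 of 100003 peaks in embryonic (E14.5) lens epithelium, 164 of 123743 in embryonic lens fibers, 76 of 58592 in newborn (P0.5) epithelium and 74 of 62995 in newborn fibers. ATAC-seq, in which a transposase inserts sequencing adaptors into accessible DNA, had been run on nuclei of epithelium and fibers microdissected from lenses of CD1 mice, an outbred stock, and the labels name no engineered allele or treatment for any group. Each of the 4 groups had 2 libraries, each made from the pooled lenses of several animals. The peaks used here were called on the libraries of a group together, so each group has 1 peak list, no value below has a replicate error, and no difference below was tested.

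The lens stands in light for life without renewing its fiber cells, and it is known for a very high content of glutathione, the peptide thiol that keeps crystallins reduced. Glutathione is made from cystine-derived cysteine, is spent on peroxides, and is regenerated with NADPH. Nrf2, the product of Nfe2l2, is a basic leucine zipper factor that is held by Keap1 and degraded in unstressed cells. When Keap1 is modified by electrophiles or oxidants, Nrf2 pairs with a small Maf protein on the antioxidant response element and raises transcription of many genes of glutathione supply and detoxification, to an extent that depends on the tissue.

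An antioxidant response element holds the core TGACNNNGC, and an AP-1 element holds TGANTCA, so a core whose letters are TGACTCAGC contains both. The densest group of such cores around the 10 genes lay 9.65 kb upstream of Hmox1, the gene of haem oxygenase. It is shown first because it has 3 copies of TGACTCAGC and a peak of every list lay on it, with summits 9585 to 9630 bp upstream of the start site. The peaks of 3 lists hold all 3 copies, and that of newborn fibers, 116 bp wide, holds 2. Capitals mark the cores, which read as their reverse complement on the strand printed.
Hmox1 upstream element, chr8:75083934-75084029, plus strand: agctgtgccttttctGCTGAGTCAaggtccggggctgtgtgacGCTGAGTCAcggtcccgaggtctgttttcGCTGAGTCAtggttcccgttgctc
The other upstream elements with this core were a peak 3.83 kb before Hmox1 and a peak 3.68 kb before Gclc, each also called in every list, although at Hmox1 the newborn peaks stop short of the core. The same core lay in a peak 3.29 kb after the start site of Gpx1 that was called in both E14.5 lists only. Each is printed with 10 bases on either side of the core, in capitals, on the strand on which the core reads forward.
Hmox1 3.83 kb upstream peak, chr8:75089740-75089768, minus strand: gaacagagggTGACTCAGCaaaatctgtc
Gclc 3.68 kb upstream peak, chr9:77750735-77750763, minus strand: cgcctcaccgTGACTCAGCactctgcgcg
Gpx1 3.29 kb downstream peak, chr9:108342299-108342327, plus strand: gcccacctccTGACTCAGCagtccaaaca
All of these regions lie outside curated genes. All sequences are those of the reference genome (GRCm38.p6), not of the CD1 animals.

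Peaks were compared by place, the rank of the MACS2 fold enrichment of a peak within its own list as a percent of the list, so that a small percent is a strong peak. Fold enrichment itself was not compared between lists. A promoter peak lay within 2 kb of a start site, and the standing of a gene was the percent of the 21000 protein-coding genes whose best promoter peak ranked as high or higher in that list, with genes lacking a promoter peak put at 100%. The lists hold no read numbers, and the read totals that the study gives for its libraries were not used here. Fold enrichment took only 102 distinct values in newborn fibers and 169 to 506 in the other lists, and in newborn fibers 13934 peaks shared the most common value, so places of weak peaks are shared by many. In the same list 48.9% of peaks had q under 0.001, against 80.5 to 87.9% in the others. Promoters of the 4 lens markers examined carried a peak in every list, those of the 7 fiber markers in both fiber lists (and 7 and 6 of them in the embryonic and newborn epithelium lists), those of the 4 epithelium markers in every list, and those of the 3 keratin genes of cornea and surface ectoderm in none. Of 5 macrophage and blood markers at most 1 had a promoter peak in any list, and of 3 erythroid markers 1 did, while 2 to 4 of 5 endothelial, 1 to 4 of 4 retinal and all 4 periocular mesenchyme markers did, and their part in the results was not tested. How many cells have a site open and how open it is in each cannot be told apart in such bulk samples.

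Nearly every gene of the set had an open promoter in all parts of the lens. All 10 genes had a promoter peak in embryonic epithelium, embryonic fibers and newborn epithelium, where 70.3%, 71.2% and 67.0% of all protein-coding genes did. In newborn fibers 9 of 10 did, against 64.6% of all genes, and the gene without one was Nqo1. The median standing of the 10 genes was 31.1% in embryonic epithelium, 35.3% in embryonic fibers, 25.8% in newborn epithelium and 32.9% in newborn fibers, beside medians of 50.1 to 51.4% over all genes. The all-gene medians include genes without a promoter peak, put at 100%. Among genes with a promoter peak, the median place in the same order was 6.47%, 6.04%, 9.18% and 8.49% for the set. Over all protein-coding genes with one it was 7.68%, 6.1%, 12.8% and 10.3%. The genes covered a wide range, from Gclm among the strongest promoters to Slc7a11 and Nqo1 among the weaker ones.

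**Figure D1:**
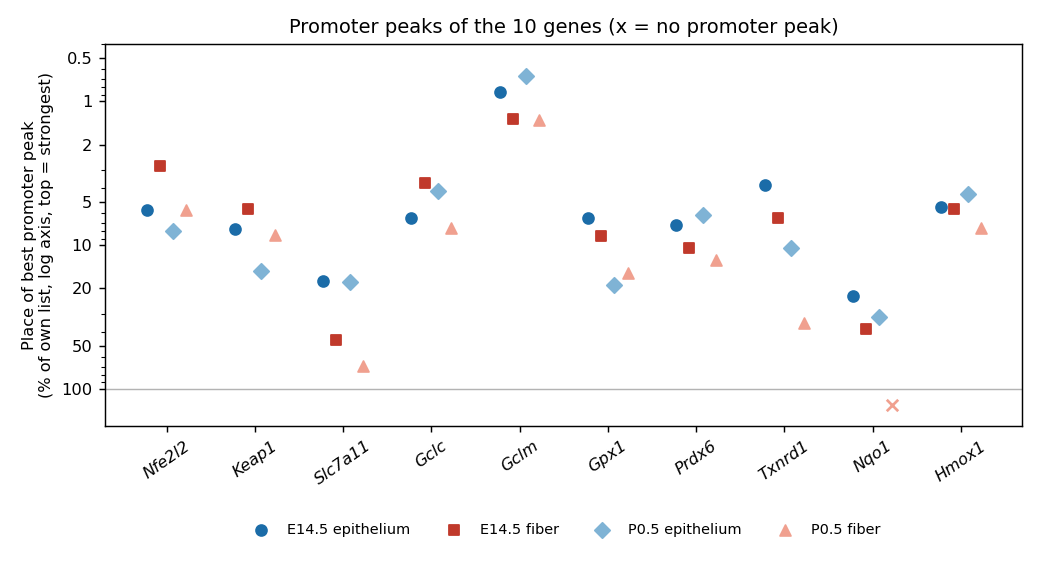
Place of the best promoter peak of each gene (vertical axis, percent of the peaks of its own list, log scale, strongest at the top) in the 4 peak lists; the cross marks the missing promoter peak of Nqo1 in newborn fibers. Gclm sits between 0.672% and 1.36% in every list, and Slc7a11 at 45.8% in embryonic and 69.2% in newborn fibers.

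The 2 regulators were open in every list. Nfe2l2 (chr2:75675513-75704663, minus strand) had its promoter peak at a place of 5.66% in embryonic epithelium, 2.81% in embryonic fibers, 7.95% in newborn epithelium and 5.69% in newborn fibers. Its standing was correspondingly 27.7%, 18.3%, 23.0% and 19.6%, so the gene ranked somewhat higher in fibers than in epithelium at each stage. The peak was wide, 2258 bp in embryonic fibers and 1242 bp in newborn fibers, and its summit lay 19 to 26 bp after the start site in the epithelium lists and 1065 to 1072 bp after it in the fiber lists. Inside the gene, the number of peaks away from the promoter was 6 in embryonic epithelium, 12 in embryonic fibers, 3 in newborn epithelium and 0 in newborn fibers. The whole neighbourhood held 10, 16, 6 and 3 peaks, against medians of 8, 10, 5 and 5 over all protein-coding genes. With every list cut to the same number of peaks, it held 5, 7, 6 and 3.

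Keap1 (chr9:21229730-21239332, minus strand), the adaptor that delivers Nrf2 to a Cul3 ubiquitin ligase, was placed at 7.68% in embryonic epithelium, 5.6% in embryonic fibers, 15.1% in newborn epithelium and 8.49% in newborn fibers. Its standing of 35.4%, 33.3%, 38.5% and 27.7% also was better in the fiber list at each stage, by 2.05 points at E14.5 and 10.8 points at P0.5. Of all genes, 52.1% at E14.5 and 32.0% at P0.5 differed by as much or more, in either direction. Keap1 lies in a crowded stretch of chromosome 9 next to Pde4a, S1pr5, Atg4d and Kri1, with 27, 28, 18 and 21 peaks in the 4 lists against medians of 8, 10, 5 and 5 over all protein-coding genes. Over the 4 lists, the genes with a pattern of standing most like that of Nfe2l2 were Fam120a, Slc12a2 and Psmb2, with summed differences of 5.51, 5.61 and 5.79 points. For Keap1 they were Ptpn11, Zc3h8 and Pcbp4, with 3.46, 3.63 and 4.12 points.

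Of the genes that make glutathione, the modifier subunit of the ligase had the strongest promoter of the set in every list, and the cystine carrier stood behind both ligase subunits in each. Gclm (chr3:122245557-122267215, plus strand), the modifier subunit of glutamate-cysteine ligase, had its promoter peak at places of 0.858%, 1.33%, 0.672% and 1.36% in embryonic epithelium, embryonic fibers, newborn epithelium and newborn fibers. In terms of genes its standing was 4.63%, 8.93%, 1.99% and 4.62%, better in the epithelium at both stages. Gclc (chr9:77754535-77794489, plus strand), the catalytic subunit, was placed at 6.52%, 3.67%, 4.22% and 7.65% in the same order. Its standing was 31.2%, 23.3%, 12.9% and 25.6%, so the fiber list was ahead at E14.5 and the epithelium list at P0.5. The Gclc peak 3.68 kb upstream was placed at 4.75%, 5.92%, 3.97% and 4.22%, ahead of the promoter peak of the gene in 3 of the 4 lists and behind it in embryonic fibers.

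Slc7a11 (chr3:50364936-50443613, minus strand), the antiporter that imports cystine, was far down the lists of fibers. Its promoter peak stood at 17.8% in embryonic epithelium and 18.0% in newborn epithelium, but at 45.8% in embryonic fibers and 69.2% in newborn fibers, the last a place shared by 13934 peaks with a −log10 q of 2.0. A second promoter region, centred 0.599 kb inside the gene, was at 18.9%, 80.6% and 29.6% in embryonic epithelium, embryonic fibers and newborn epithelium and had no peak in newborn fibers. The whole neighbourhood held 8, 8, 7 and 1 peaks in the 4 lists, every one of them in the promoter or the body of Slc7a11. Each weak fiber peak was lost under 1 of 2 stricter settings and kept under the other. When every list was cut to the same number of peaks, the strongest by p-value, the embryonic one was lost and the newborn one stood at 74.4%, and at q under 0.001 the newborn one was lost and the embryonic one stood at 56.9%.

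The 250 bases before the start sites of Gclm, Slc7a11 and Nqo1, the strongest and the weakest promoters of the set, are shown with the antioxidant response element core in capitals where there is one.
Gclm promoter, chr3:122245307-122245556, plus strand: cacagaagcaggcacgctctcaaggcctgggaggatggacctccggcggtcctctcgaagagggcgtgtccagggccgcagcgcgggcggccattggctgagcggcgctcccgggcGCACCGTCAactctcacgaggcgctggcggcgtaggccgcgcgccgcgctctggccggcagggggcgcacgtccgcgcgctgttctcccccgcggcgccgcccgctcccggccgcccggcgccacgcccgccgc
Slc7a11 promoter, chr3:50443614-50443863, minus strand: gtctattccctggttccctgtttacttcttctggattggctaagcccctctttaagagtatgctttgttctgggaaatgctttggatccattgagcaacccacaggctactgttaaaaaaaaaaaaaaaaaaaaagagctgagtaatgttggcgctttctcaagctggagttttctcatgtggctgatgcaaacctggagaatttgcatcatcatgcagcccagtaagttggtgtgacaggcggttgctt
Nqo1 promoter, chr8:107403206-107403455, minus strand: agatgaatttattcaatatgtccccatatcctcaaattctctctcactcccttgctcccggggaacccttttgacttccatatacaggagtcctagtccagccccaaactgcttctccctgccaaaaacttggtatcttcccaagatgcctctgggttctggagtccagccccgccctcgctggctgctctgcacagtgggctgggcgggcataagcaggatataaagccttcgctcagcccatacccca
The Gclm stretch has 1 core, on its reverse strand, and the other stretches have none. In 300-base promoters from RefSeq, which run on to 50 bases after the start site, 12.4% of 32851 held a core on either strand. The table had 9 promoters of 7 of the genes and no entry for Gclc, Prdx6 and Hmox1, and 3 of the 9, those of Nfe2l2 and Gclm and 1 of 3 of Txnrd1, held a core. Gclm also had a core with the letters TGACTAAGC in an exon 99 bases after its start site, within the promoter peak.
Gclm exon, chr3:122245642-122245670, minus strand: tggaagacaaTGACTAAGCagaaacctca

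The peroxide-removing enzymes had promoters of middle strength. Gpx1 (chr9:108339080-108340342, plus strand), the cytosolic glutathione peroxidase, was placed at 6.43% in embryonic epithelium, 8.68% in embryonic fibers, 18.8% in newborn epithelium and 15.7% in newborn fibers. Its standing was 30.9% in embryonic epithelium and 44.3 to 44.7% in the other 3 lists, which hardly differed from each other. Prdx6 (chr1:161240112-161251210, minus strand), a peroxiredoxin that reduces phospholipid hydroperoxides with the help of glutathione, was at 7.27%, 10.4%, 6.14% and 12.6%. Its standing of 33.9%, 48.3%, 18.0% and 38.0% was poorer in the fiber list at each stage. Prdx6 stood almost alone, with 3, 2, 3 and 1 peaks in its whole neighbourhood.

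Txnrd1 (chr10:82833951-82897724, plus strand), the cytosolic thioredoxin reductase, had 3 annotated start sites, and its strong promoter peak lay at the second, 25.4 kb after the first, at a promoter shared with Gm38560. That peak was placed at 3.82% in embryonic epithelium, 6.49% in embryonic fibers, 10.4% in newborn epithelium and 34.7% in newborn fibers, where 8922 peaks shared the place. At q under 0.001 it was placed at 71.0% in newborn fibers. The standing of Txnrd1 went from 19.5% and 37.3% at E14.5 to 28.7% and 58.6% at P0.5, epithelium before fibers. The promoter has 1 core, printed on the strand on which it reads forward.
Txnrd1 promoter, chr10:82859104-82859132, minus strand: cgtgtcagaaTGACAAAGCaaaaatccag

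The 2 classical Nrf2 target enzymes differed. Nqo1 (chr8:107388225-107403205, minus strand), the quinone reductase, had the weakest promoter of the set in embryonic epithelium and newborn epithelium, at places of 22.5% and 31.6%, stood at 38.0% in embryonic fibers, and had no promoter peak in newborn fibers. That absence means that no peak passed q of 0.05 there, not that the promoter was closed. At equal numbers of peaks the Nqo1 promoter was placed at 38.3% in embryonic epithelium, 31.6% in newborn epithelium and 80.3% in embryonic fibers. The neighbouring Nob1 and Wwp2 promoters had peaks in every list, Nob1 at places of 4.95%, 5.18%, 7.24% and 4.64%. Hmox1 (chr8:75093618-75100593, plus strand), which degrades haem to biliverdin, iron and carbon monoxide, had a promoter peak at places of 5.46%, 5.6%, 4.44% and 7.65%. At equal numbers of peaks these became 9.32%, 11.8%, 4.44% and 8.23%, and at q under 0.001 they became 6.21%, 6.95%, 5.12% and 15.7%. Its standing of 26.9%, 33.3%, 13.5% and 25.6% was poorer in the fiber list at each stage, by 6.47 and 12.1 points.

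Between fibers and epithelium, several promoters of the set stood poorer in the newborn fibers, and none stood better by the same margin. A gene was counted as moved when its standing differed by at least 20 points between lists. At E14.5, 0 of 10 genes moved toward a poorer standing in fibers, beside 1.98% of all genes, and 0 moved toward a better one, beside 2.78%. At equal numbers of peaks, where it has no peak in embryonic fibers, Slc7a11 was poorer there by 46.5 points, 1 of 10 genes beside 2.23% of all. At P0.5, 4 of 10 were poorer in fibers, beside 9.95% of all genes, and 0 were better, beside 6.66%. The 4 genes were Nqo1, by 43.8 points, Txnrd1, by 29.9, Slc7a11, by 20.7, and Prdx6, by 20 points. The last pair lay at the limit and fell below it with promoters narrowed to 1 kb, which left 2 genes, while at q under 0.001 Slc7a11 was poorer by 56.8 points, since it then had no peak in newborn fibers. Nqo1 reached its value because a gene without a peak is put at 100%. With no limit on size, 7 of 10 genes were poorer in the fiber list at each stage, beside 34.7% of all genes at E14.5 and 35.9% at P0.5, shares that count genes without a peak in either list as not poorer. Of the 52 other antioxidant genes described below, nearly all with a promoter peak, 31 and 29 were poorer. The median change of the 10 genes was 7.48 points at E14.5 and 12.4 at P0.5, against 0.724 and 2.79 in the 52 and 0.0 over all genes in both. The genes that were not were Nfe2l2, Keap1 and Gclc at E14.5 and Nfe2l2, Keap1 and Gpx1 at P0.5.

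The comparisons of stages use the same 4 lists as the comparisons of tissues. In epithelium, 0 of 10 genes moved toward a poorer standing from E14.5 to P0.5, beside 5.96% of all genes, and 0 toward a better one, beside 2.82%. The largest changes there were better standings of Gclc, from 31.2% to 12.9%, Prdx6, from 33.9% to 18.0%, and Hmox1, from 26.9% to 13.5%, and a poorer one of Gpx1, from 30.9% to 44.5%. In fibers, Nqo1 and Txnrd1 were poorer at P0.5 by 34.4 and 21.3 points, 2 of 10 beside 10.6% of all genes, and 0 were better, beside 2.91%. The change of Slc7a11 between the fiber lists had no settled direction, since it was 3.15 points better at P0.5 with all peaks, 36.1 points better at equal numbers of peaks and 32.9 points poorer at q under 0.001. The newborn fiber list is the one with the fewest distinct values and the smallest share of peaks with q under 0.001, and the part of this in the changes of Nqo1, Txnrd1 and Slc7a11 was not tested.

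**Figure D2:**
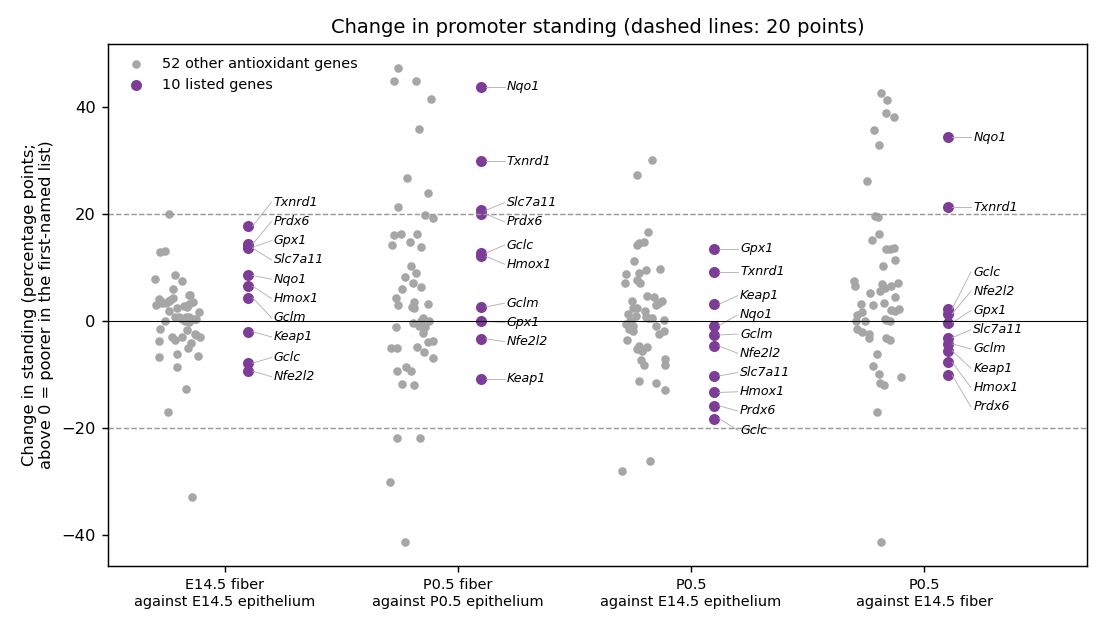
Change in the standing of the best promoter peak (vertical axis, percentage points, above 0 poorer in the list named first) for the 10 genes (purple, named) and 52 other antioxidant genes (grey) in 4 comparisons of peak lists. In newborn fibers against newborn epithelium, Nqo1, Txnrd1, Slc7a11 and Prdx6 are at or above the dashed line at 20 points.

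Around the genes, most peaks were not at their own promoters. Of the 126, 164, 76 and 74 peaks, 19, 17, 16 and 13 were at the gene's own promoter and 22, 38, 12 and 6 elsewhere in its body. A further 27, 28, 19 and 23 lay at the promoter of another gene. The largest class, 58, 81, 29 and 32 peaks, lay outside the gene and outside any promoter. When peaks of all lists within 10 bp were merged, the neighbourhoods held 208 regions, of which 108 (51.9%) were called in 1 list and 35 (16.8%) in every list, beside 59.5% and 10.9% of all 185271 merged regions. The 35 comprised 10 regions at the promoters of the genes themselves, 14 at promoters of other genes and 11 elsewhere. The 11 included the peaks upstream of Hmox1 and Gclc shown above. Regions called in fiber lists only made up 41.8% and those called in epithelium lists only 15.9%, beside 44.4% and 19.8% of all regions.

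**Figure D3:**
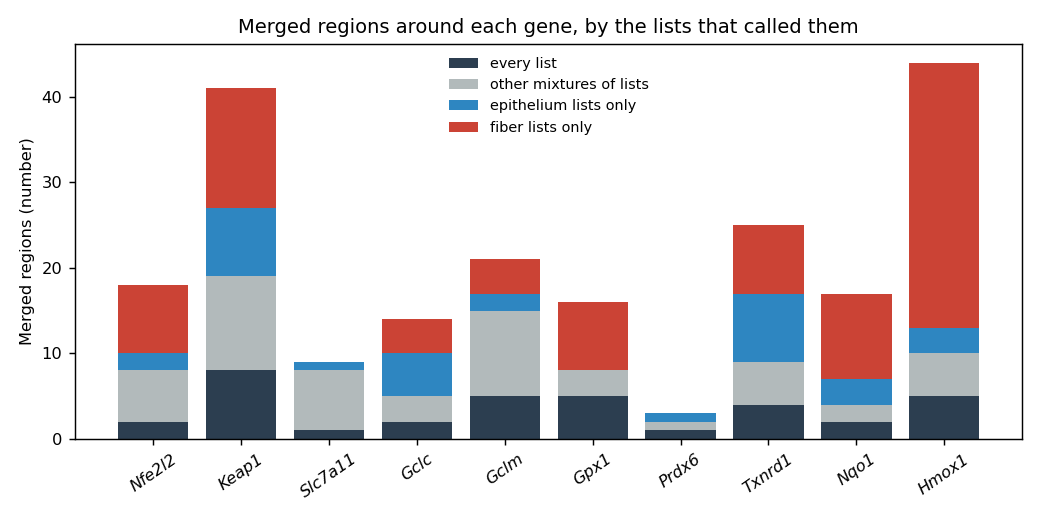
Number of merged regions around each gene (stacked bars), by the peak lists that called them. Hmox1 has 44 regions, 31 of them in fiber lists only, Keap1 has 41, and Prdx6 has 3.

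Counting all peaks, fibers and epithelium differed most in number around Hmox1. It held 16 peaks in embryonic epithelium and 38 in embryonic fibers, and 7 in newborn epithelium and 19 in newborn fibers. Peaks covered 5.64%, 19.8%, 2.59% and 4.37% of its bases in embryonic epithelium, embryonic fibers, newborn epithelium and newborn fibers, and 3.96% of protein-coding genes were more covered than Hmox1 in embryonic fibers. Cut to the same number of peaks in every list, the counts became 9 and 12 at E14.5 and 7 and 17 at P0.5. At q under 0.001 they were 14 and 30 at E14.5 and 6 and 9 at P0.5, so the fiber list held more peaks under each setting, but the stage at which the difference was large depended on the setting. Of 44 merged regions 31 (70.5%) were called in fiber lists only and 3 (6.82%) in epithelium lists only, beside 44.4% and 19.8% of all regions. The difference from all regions depended on the setting. With every list cut to the same number of peaks, 6 of 15 regions around Hmox1 (40%) were called in fiber lists only, beside 37.5% of all regions, while at q under 0.001 it was 23 of 34 (67.6%), beside 35.1%. Of the 44, 17 lay between 49.4 and 22.2 kb upstream within the body of Tom1, an endosomal sorting gene, and 13 of those 17 (76.5%) were called in fiber lists only. The widest, 2678 bp centred 22.2 kb upstream, was placed at 16.8%, 11.2% and 14% in embryonic epithelium, embryonic fibers and newborn fibers and had no peak in newborn epithelium.

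Within 10 kb of the Hmox1 start site, 10 of 15 regions (66.7%) were called in embryonic fibers only, beside 29.3% of all regions. They were 129 to 638 bp wide, at places of 53.3 to 90.1%, and at equal numbers of peaks 0 of 5 regions were called in embryonic fibers only, beside 12.5% of all. At q under 0.001 it was 7 of 12 (58.3%), beside 29.5%. Another 3 of the 15 were called in every list, the promoter and 2 upstream regions with cores. The 396-bp region 9.65 kb upstream, with the 3 printed copies of TGACTCAGC, was placed at 5.89% in embryonic epithelium and 7.95% in newborn epithelium but at 12.1% in embryonic fibers and 26.4% in newborn fibers. The 1597-bp region 3.83 kb upstream, with 4 cores, was placed at 11.7%, 8.68%, 24.9% and 48.9% in embryonic epithelium, embryonic fibers, newborn epithelium and newborn fibers. With every list cut to the same number of peaks, the first was placed at 10%, 25.5%, 7.95% and 28.4% and the second at 19.9%, 18.3%, 24.9% and 52.6% in the same order. At either length the first had the better place in epithelium at each stage. The second had the better place in epithelium at P0.5, and at E14.5 its places in the 2 tissues were close at equal numbers of peaks. At q under 0.001 the first was placed at 54.0% in newborn fibers and the second had no peak there. These comparisons of the regions around Hmox1 under shorter lists were added after the data were seen. Past the gene, the peak at the promoter of Mcm5, a subunit of the replicative helicase, was placed at 1.45%, 2.12%, 2.42% and 7.65%, ahead of the Hmox1 promoter in 3 lists and level with it in newborn fibers.

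**Figure D4:**
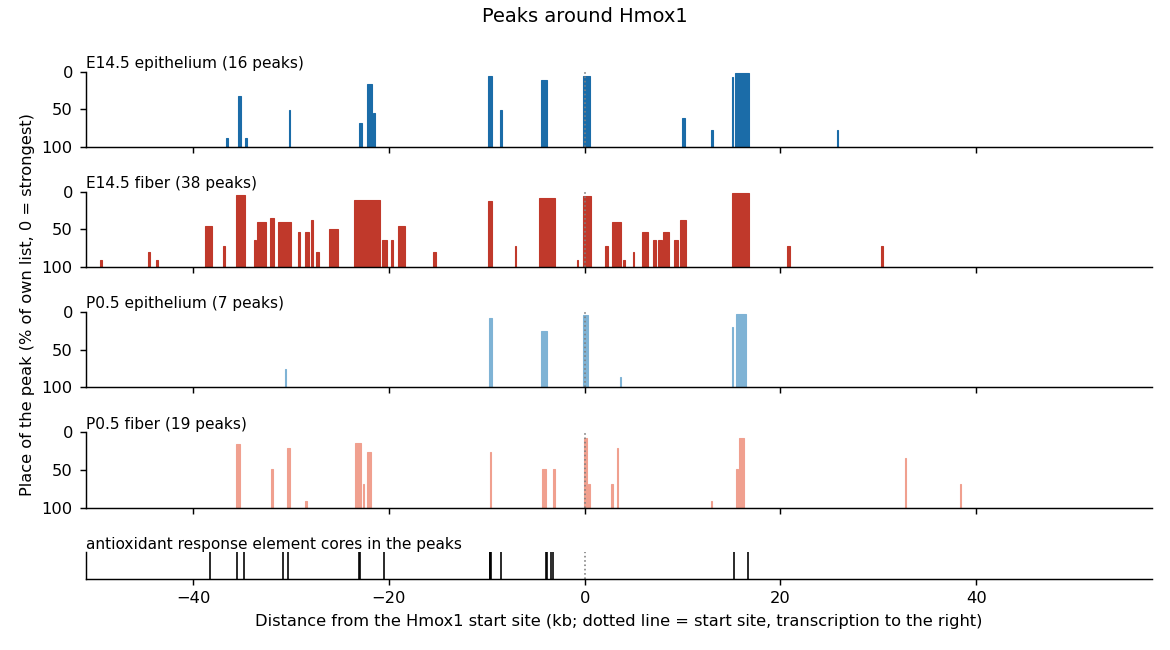
Peaks of the 4 lists within 50 kb of Hmox1 by distance from its start site (horizontal axis, kb); bar height is the place in the list (0% strongest), and ticks at the bottom mark antioxidant response element cores in the peaks. The promoter, the regions 3.83 and 9.65 kb upstream and the Mcm5 promoter 15.9 kb downstream are called in every list, and regions called in fiber lists only lie on both sides of the start site, 14 of 18 beyond 20 kb upstream and 10 of 15 within 10 kb.

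Antioxidant response element cores were not much denser around the 10 genes than in open chromatin at large. The 208 merged regions held 64 cores in 103.0 kb, 0.622 per kb, against 0.563 per kb over all merged regions, and 20.7% of them held at least 1 core, against 18.7%. In the 200 bp around the summit a core lay in 20 of 126 peaks of embryonic epithelium (15.9%, 95% Wilson interval 10.5 to 23.2), beside 11.9% of all peaks of that list. In embryonic fibers it was 25 of 164 (15.2%, 10.5 to 21.5), beside 12.3%. In newborn epithelium it was 9 of 76 (11.8%, 6.36 to 21), beside 11.3%, and in newborn fibers 12 of 74 (16.2%, 9.53 to 26.2), beside 11.5%. With a core counted anywhere in the peak, the shares were 23.8%, 23.8%, 17.1% and 24.3% in embryonic epithelium, embryonic fibers, newborn epithelium and newborn fibers, beside 18.1%, 21.9%, 16.5% and 15% of all peaks. The intervals cover counting error only and are no test, since peaks of 1 neighbourhood are not independent and the lists share regions.

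Closer to the full element, the share around the genes was more than that of all peaks in each list. A core followed by an A lay in 9.52% of the peaks in embryonic epithelium (5.53 to 15.9), 11.0% in embryonic fibers (7.06 to 16.7), 7.89% in newborn epithelium (3.67 to 16.2) and 8.11% in newborn fibers (3.77 to 16.6). These were 12, 18, 6 and 6 peaks. Over all peaks of the lists the shares were 3.71%, 4.09%, 3.14% and 3.13%. TGACTCAGC was the most common form of the core, with 7 of 64 (10.9%) against 4.69% of 43046 cores in all merged regions. Those 7, the only cores that contain an AP-1 element, were in 5 of the 208 regions (2.4%), against 1.07% of all regions, with 4 copies near Hmox1 and 1 each near Gclc, Gpx1 and Gclm, the last 50.2 kb downstream and next to Mir760. The region 9.65 kb upstream of Hmox1 was 1 of 5 among all 185271 with at least 3 copies of TGACTCAGC. AP-1 elements, within a core or not, lay in 7.94%, 6.71%, 3.95% and 5.41% of the peaks around the genes and in 6.22%, 6.77%, 5.7% and 4.79% of all peaks. The looser core TGANNNNGC, added after the data were seen, lay in 41.3%, 32.9%, 38.2% and 32.4% of the peaks around the genes and in 36.9%, 38.0%, 36.2% and 36.3% of all peaks, so its share was above that of all peaks in the epithelium lists and below it in the fiber lists. A match is a string of letters and does not show that Nrf2, or the large and small Maf proteins that bind related letters in the lens, sat there.

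**Figure D5:**
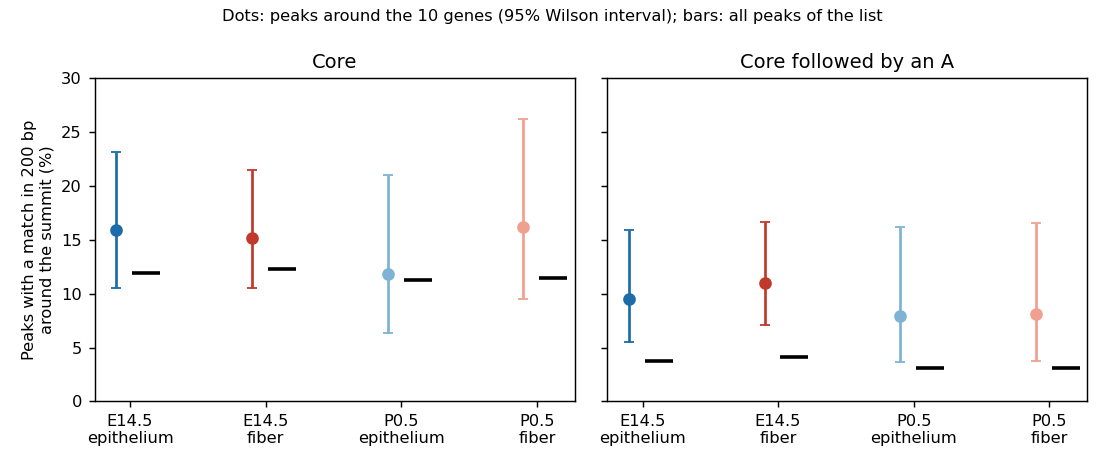
Share of peaks with a core (left) and with a core followed by an A (right) in the 200 bp around the summit (vertical axis, percent), for peaks around the 10 genes (dots with 95% Wilson intervals) and all peaks of the list (black bars). The dots are at 11.8 to 16.2% on the left and 7.89 to 11.0% on the right, and the black bars at 11.3 to 12.3% and 3.13 to 4.09%.

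Most other genes of the pathway also had an open promoter. Of 52 further antioxidant genes, 50 (96.2%), 51 (98.1%), 50 (96.2%) and 46 (88.5%) had a promoter peak in embryonic epithelium, embryonic fibers, newborn epithelium and newborn fibers, beside 70.3%, 71.2%, 67.0% and 64.6% of all protein-coding genes. The best median standings over the 4 lists belonged to Ggct, which breaks down gamma-glutamyl peptides, at 1.83%, Gpx4, the peroxidase that acts on membrane lipid hydroperoxides, at 2.04%, and Sod2, the mitochondrial superoxide dismutase, at 2.96%. The poorest were those of Bach2 and Slc7a9, each with a promoter peak in 1 list, and of Glrx and Gpx7, both at 63.8%. In newborn fibers against newborn epithelium 8 of the 52 (15.4%) were poorer by at least 20 points, beside 9.95% of all genes, and 4 (7.69%), Mafg, Rbx1, Slc3a2 and Slc7a9, were better, beside 6.66%. In newborn against embryonic fibers 7 (13.5%) were poorer, beside 10.6%, and 1 (1.92%), Slc7a9, was better, beside 2.91%. In embryonic fibers against embryonic epithelium 0 were poorer, beside 1.98%, and 1 (1.92%), Bach2, was better, beside 2.78%. In newborn against embryonic epithelium 2 (3.85%), Rbx1 and Slc3a2, were poorer, beside 5.96%, and 2 (3.85%), Abcc1 and Me1, better, beside 2.82%. These shares lay near those of all genes, and the genes were named after their values were seen.

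As with Nqo1, some of the 52 had no promoter peak in newborn fibers but had one in the other 3 lists. They were the conjugating enzymes Gsta4 and Mgst1, the secreted enzymes Gpx3 and Sod3, and the glutaredoxin Glrx, with standings of 52.6 to 64.2% in the lists where they had a peak. Gpx7, at 62.1 to 65.1% in the same 3 lists, had a peak in newborn fibers, at a place of 69.2% that 13934 peaks shared. By group, the thioredoxin and peroxiredoxin genes (11 of 11), the genes of NADPH supply (6 of 6) and those of haem and iron (5 of 5) had a promoter peak in every list. In newborn fibers the Nrf2 partners and regulators came to 9 of 10, the genes of glutathione synthesis, recycling and conjugation to 10 of 13 (76.9%) and those of peroxide and superoxide removal to 5 of 7 (71.4%), beside 64.6% of all genes.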

How the data were processed

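ATAC-seq was run on 8 libraries, 2 for each of the 4 groups. Per the study's methods and the submitters' processing notes, the authors trimmed reads with Trim Galore 0.4.1, aligned them to mm10 with Bowtie2 2.3.3.1, removed mitochondrial and duplicate reads with SAMtools 1.2 and Picard 2.1.1, and called peaks with MACS2 2.1 at q under 0.05. The deposited peak lists, 1 per group with the libraries pooled, give for each peak a fold enrichment (a ratio), a −log10 p and −log10 q value, and a score, all as deposited by MACS2; the score was not used. No deposited column belonged to a sample outside the series. The lists hold no read numbers, and the read totals in the study's supplement were not used here.

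Places, standings, merged regions (within 10 bp) and motif matches were computed with Python 3.11.15, pandas 2.3.3, numpy 2.4.6, scipy 1.17.1 and pysam 0.24.0 from 45756 curated RefSeq transcripts (GRCm38.p6, the assembly of mm10), and each step was tested on simulated peaks. Peaks on unplaced sequence, 57 to 90 per list, kept their rank but were not assigned to genes. All 10 genes, 52 other genes and the markers matched the annotation. Genes were named if they were among the 10, held a described promoter near them, lacked a promoter peak in a list, ranked among the 3 best or 3 poorest of the 52, or were among the 3 most like Nfe2l2 or Keap1 in standing. Genes named for lying nearby, or because few of the 52 moved, were picked with their values in view. The genes, lists and motifs were chosen with earlier results of these data known. No test was run, because each group has 1 list, and the 95% Wilson intervals of shares of peaks cover counting error only. Alternatives were other ranks, windows, thresholds, transcripts and motif forms.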

Additional observations from a re-analysis of the deposited data

How the results depend on the processing

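No paired analysis was possible because each group's libraries were pooled into 1 list, and leaving out a library could not be run for the same reason. Ranking by −log10 p in place of fold enrichment gave the same place to all 39 promoter peaks, so it was no separate check. No standing moved under it. Promoters of 1 kb changed no place either. Shortening the lists raised places without reordering peaks, at equal numbers of peaks 28 of 38, by up to 42.3 points (Nqo1 in embryonic fibers, from 38.0% to 80.3%), and at q under 0.001 38 of 38, by up to 36.3 points (Txnrd1 in newborn fibers, from 34.7% to 71.0%). With q under 0.001, at equal numbers of peaks, with promoters of 1 kb and with predicted transcripts, the count of genes with an open promoter stayed within 1.5 times. Slc7a11 lost its promoter peak in embryonic fibers at equal numbers of peaks and in newborn fibers with q under 0.001. Numbers of peaks around the genes, in embryonic epithelium, embryonic fibers, newborn epithelium and newborn fibers, became 75, 100, 49 and 39 with flanks of 20 kb. With flanks of 100 kb they became 205 in embryonic epithelium, 122 in newborn epithelium and 119 in newborn fibers. At equal numbers of peaks they were 81 in each E14.5 list, and with q under 0.001 newborn fibers had 45. With a limit of 10 points, 4 genes were poorer in embryonic fibers than in epithelium (6.36% of all genes), 6 poorer (18.5%) and 1 better (15.8%) in newborn fibers than in epithelium, 1 poorer (13.8%) and 4 better (9.68%) in newborn than in embryonic epithelium, and 2 poorer (18.7%) and 1 better (10.9%) in newborn than in embryonic fibers. The stricter lists were applied to moves of 20 points after seeing the data. At equal numbers of peaks 1 gene, Slc7a11, was poorer in embryonic fibers than in epithelium (2.23% of all genes) and better in newborn than in embryonic fibers (4.3%), and at q under 0.001 it joined the genes poorer in newborn than in embryonic fibers, then 3 (14.1%). With promoters of 1 kb, 2 genes were poorer in newborn fibers than in epithelium. The number of merged regions called in every list stayed within 1.5 times under the 3 alternatives run. A core within 100 bp around the summit lay in 10 peaks of embryonic epithelium, 16 of embryonic fibers and 5 of newborn fibers, and anywhere in the peak in 39 of embryonic fibers. A core followed by an A lay in 12 peaks of embryonic epithelium and 6 of newborn fibers. The looser core TGANNNNGC, chosen after seeing the data, lay in 52, 54, 29 and 24 peaks, shares that fell below those of all peaks in both fiber lists. Each alternative allows fewer or more peaks, bases or letters, and the part of this in the moves was not tested.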
